A study of Mus musculus with 5 samples.

Results

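The potassium channel family was followed in the retina of mice with form-deprivation myopia (FDM). A gene was a member if its symbol in the count table was Kcn followed by letters and a number, with Kcnj10, Kcnj13 and Kcnq5 excepted. Of 93 such symbols, 90 were members among 33636 genes in the table. All libraries came from retinas of wild-type male C57BL6/J mice at postnatal day (P) 42. The FDM libraries came from right eyes that wore a head-mounted diffuser goggle from P28 for 2 weeks, and the control libraries came from uncovered left eyes of goggled mice. There were 2 FDM and 3 control libraries. The refractive error in the labels, given without a unit, was 0.976 and 0.2745 in the FDM eyes and 2.4455, 3.1505 and 2.465 in the control eyes. The comparison asks which channel genes differ between a retina exposed to form deprivation and the untreated retina of the fellow eye. No eyes of ungoggled mice were analysed here. The second FDM library is called FDM 3, as in the header of the count table and the numbering of the study. The label of the second FDM sample carries the number 2, and the match of the 2 was inferred.

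Potassium channels set the resting potential of retinal cells, end action potentials and shape the light response. Voltage-gated (Kv) channels are assembled from several pore-forming subunits, and silent or modifier subunits form no channel alone but change the properties of Kv subunits they join. Inward rectifiers pass current best near rest, calcium- and sodium-activated channels couple the potential to ion entry, and two-pore-domain channels carry leak current. Auxiliary subunits regulate gating and traffic to the membrane. The modifier Kcnv2 is made in rod and cone photoreceptors, and loss of KCNV2 causes a cone dystrophy with an altered rod response in humans.

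The total of estimated counts per library ran from 40599047 in Control 1 to 56534931 in Control 2, so that 3 counts stood for 0.0526 to 0.0751 counts per 1000000 (CPM). Markers of rods, cones, bipolar, amacrine, horizontal and ganglion cells and Mueller glia were above 0 in every library, and 0 of them passed the test described below. Markers of other tissues varied between libraries. The 6 markers of retinal pigment epithelium (RPE) summed to 63.3 CPM (FDM 1) and 50.7 CPM (FDM 3) in FDM eyes and to 68.8, 238 and 202 CPM in Controls 1 to 3, and 5 of the 6 were called lower in FDM eyes. The 6 lens markers in the table summed to 1227 CPM in FDM 3 and to 2.30 to 11.1 CPM elsewhere. The 6 skeletal muscle markers, 3 of which were at 0 in at least 1 library, summed to 56.6 CPM in Control 3 and 9.12 to 10.5 CPM elsewhere, and melanocyte markers to 131 CPM in Control 3 and 16.2 to 41.5 CPM elsewhere. The part of these tissues in the results for channel genes was not tested beyond leaving out each library in turn. In bulk tissue, fewer cells of a type cannot be told apart from less RNA per cell.

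Of the 90 members, 84 had a count above 0 in every library and Kcnk16 had none in any. The test required more than 10 counts in at least 2 libraries, which 76 members passed. The other 14 were Kcna7, Kcna10, Kcng3, Kcnh3, Kcnh4, Kcne1, Kcne3, Kcnmb3, Kcnn4, Kcnk5, Kcnk7, Kcnk15, Kcnk16 and Kcnk18.

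On the scale of CPM per kb of exon, 16 members had a mean over 10, 46 a mean over 1 and 44 a mean under 1. This scale allows a rough comparison between genes. Its length takes in every annotated exon of a gene, used in retina or not, so the order also depends on the annotation. The highest was the inward rectifier Kcnj14, at a mean of 232 CPM per kb (196 to 270 over the 5 libraries). The photoreceptor modifier Kcnv2 had 93.1 CPM per kb (78.0 to 119), and the ranges of Kcnj14 and Kcnv2 did not overlap. The summed CPM of all members was 4743 to 5219 per library. Kcnab2, a cytoplasmic beta subunit of Shaker-type channels, came after Kcnv2 at 62.9 CPM per kb (54.2 to 69.6), again without overlap.

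Below it stood the Shaker-type subunit Kcna5 at 33.6 CPM per kb, the single-span subunit Kcne2 at 32.9 and the G protein-gated rectifier subunit Kcnj9 at 32.0, whose ranges overlapped one another. The ether-a-go-go related Kcnh2 had a mean of 21.2 CPM per kb, the beta subunit Kcnab3 19.7, Kcnc1, a subunit of the fast channels that support high firing rates, 18.9, the two-pore-domain channel Kcnk1 18.0 and the calcium-binding Kcnip3 16.1. From Kcnh2 down to Kcnip3, each range overlapped that of the next gene. Kcnip4 at 12.6 and Kcnh6 at 11.4 CPM per kb were also over 10.

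**Figure D1:**
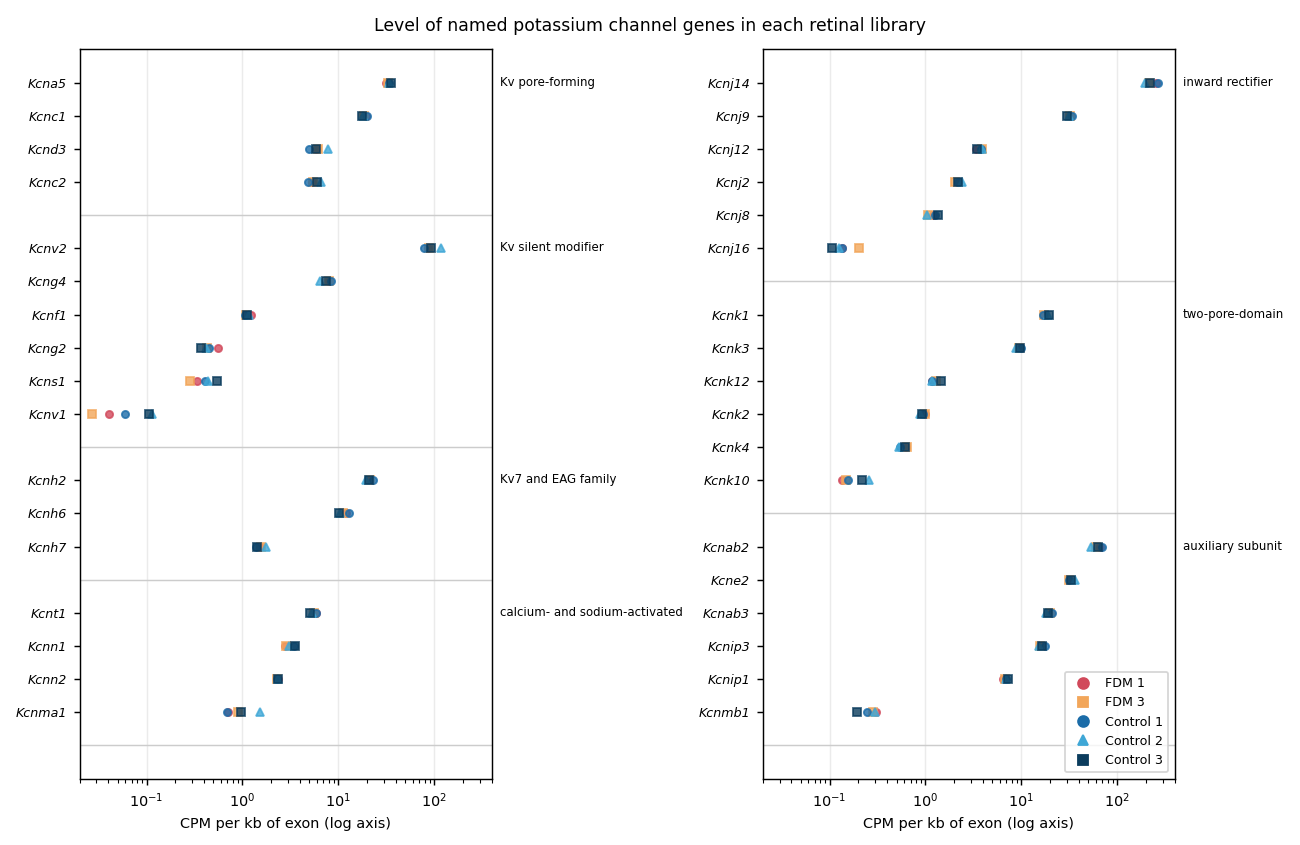
Level of 35 tested potassium channel genes named by the rule in the methods, one row per gene grouped by channel class, as CPM per kb of exon on a log axis. Each point is 1 library, with FDM 1 and FDM 3 in red and orange and the 3 control libraries in blues. Kcnj14 and Kcnv2 stand highest among those shown, at mean levels of 232 and 93.1 CPM per kb, and the points of most genes lie close together.

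Every class was present. By summed CPM the Kv pore-forming subunits led with 2148 to 2554 per library, followed by the inward rectifiers (750 to 950), the auxiliary subunits (659 to 732), the silent modifiers (444 to 647), the Kv7 and EAG family (359 to 382), the calcium- and sodium-activated channels (103 to 114) and the two-pore-domain channels (91.0 to 98.5). These sums are not corrected for gene length. Exon bases were shared with another annotated gene by 26 members, among them Kcna6 (39.6%) and Kcnj3 (31.1%). The library kit keeps no strand, so reads from such stretches cannot be assigned to one gene by strand.

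Few channel genes were called different between FDM and control retinas. With so few libraries, an unadjusted call alone does not show a difference, and a gene without a call was not shown to be unchanged. At the study's threshold of an unadjusted p under 0.05, edgeR called 2 of 76 members (2.63%), against 1.61% of the 17432 genes tested. Both, Kcnv1 and Kcns1, were silent modifiers of Kv channels and lower in FDM eyes, where 1.16% of all genes were called lower. 0 members were called higher, against 0.453% of all genes. After Benjamini-Hochberg adjustment over all genes, 0 genes passed 0.05, and the smallest adjusted p of a member was 1.0. DESeq2 called 1 member (1.32%), Kcnv1, lower in FDM eyes, against 0.987% of all genes in either direction and 0.780% lower. After adjustment DESeq2 called 0 members and 3 of all genes (0.0172%).

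The median log2 fold change of the tested members was -0.02, beside -0.01 for all genes, with 34 members above 0 and 42 below. It was under 0.15 in size for 55 members and over 0.3 for 11, and it ran from -1.49 for Kcnv1 to 0.47 for Kcnj16. For 54 members (71.1%) the 95% interval lay within a 1.5-fold change either way, which was so for 73.7% of all genes. The levels of the 2 groups did not overlap for 12 members (15.8%), against 10.6% of all genes. Of these, Kcna5, Kcns1, Kcns3, Kcnv1, Kcne2, Kcnip1, Kcnn1 and Kcnk10 were lower in both FDM libraries than in each control library (10.5% against 6.67%), and Kcnj1, Kcnj16, Kcnk2 and Kcnk4 were higher (5.26% against 3.97%).

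**Figure D2:**
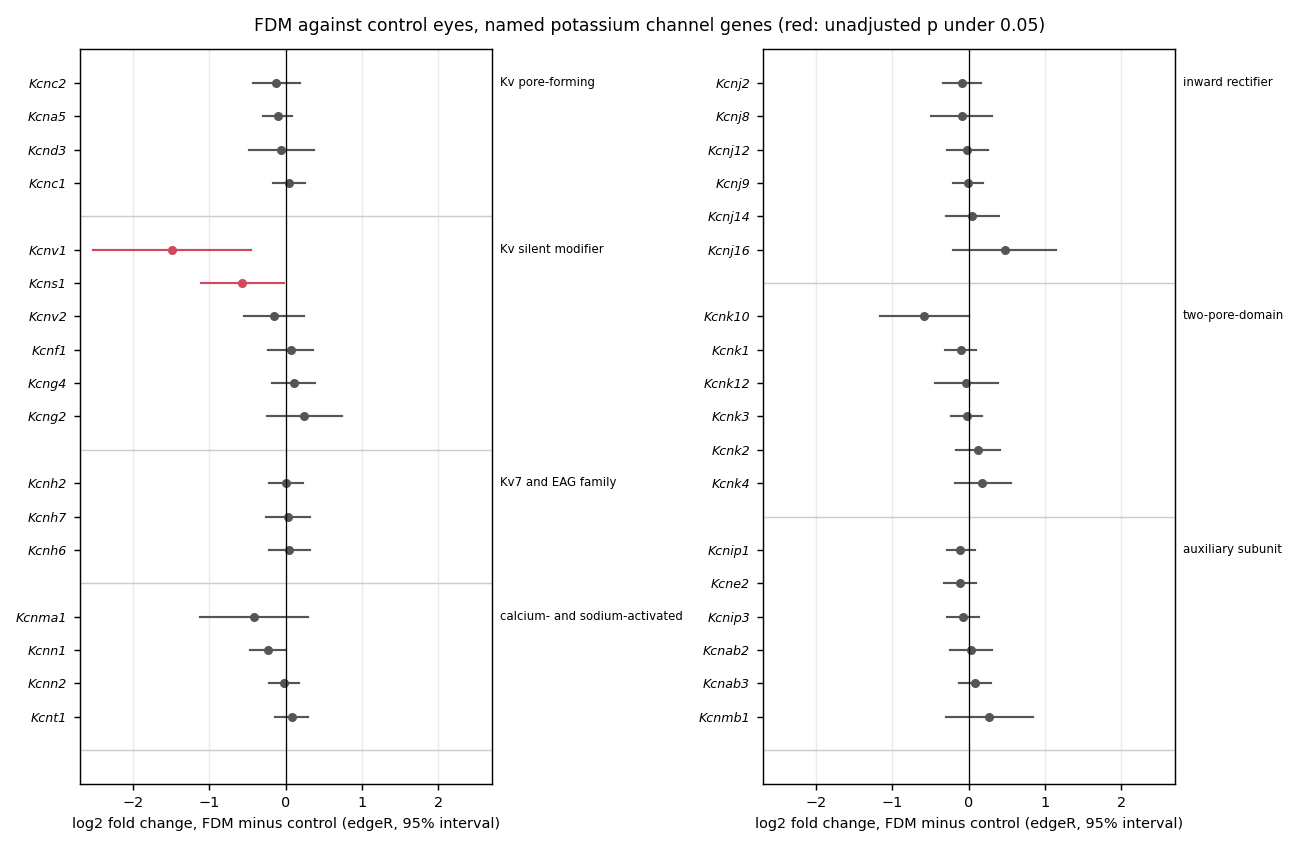
The log2 fold change of the same 35 potassium channel genes, FDM minus control, from edgeR's quasi-likelihood test, with its 95% interval, grouped by channel class. Kcnv1 (-1.49) and Kcns1 (-0.57), in red, had an unadjusted p under 0.05, and most other intervals are narrow and lie across 0.

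The call count depended on which libraries and which model were used. The 2 FDM eyes and Control 1 and Control 3 formed 2 pairs of eyes from the same mice by the study's numbering, and the goggled eye of the mouse of Control 2 was not analysed here. In a block for the mouse, Control 2, the only library of its mouse, adds nothing to the FDM estimate of a gene. Estimates with this block and without Control 2 thus rest on the same libraries and are not separate checks. With the mouse as a block, 5 members (6.58%) were called, against 7.23% of all genes. Kcnn1, Kcnv1 and Kcns1 were among the 4 called lower (5.26% of members, 3.67% of all genes), and Kcnh7 was called higher (1.32% of members, 3.57% of all genes). After adjustment the block left 0 members, at a smallest adjusted p of 0.395, and 0.310% of all genes. Without FDM 1, 1 member (1.32%) was called against 0.947% of all genes, and without FDM 3, 0 against 1.12%. Leaving out Control 1 gave 7 (9.21%, against 5.42% of all genes), which were Kcnv1, Kcnk10, Kcnc2, Kcns1, Kcna1 and Kcnma1, lower, and Kcnd1, higher. Leaving out Control 2 gave 3 (3.95% against 3.16%), with Kcnn1 and Kcnv1 among them, and Control 3 gave 1 (1.32% against 0.838%).

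Kcnv1 (ENSMUSG00000022342, chromosome 15 of GRCm38, 45106284 to 45114920) encodes a silent subunit that alters other Kv channels. FDM 1 held 8 counts and FDM 3 held 6, whereas Controls 1, 2 and 3 held 11, 30 and 23. Both FDM libraries lay below each control library, and Control 1 was the nearest to them. FDM eyes averaged 0.155 ± 0.0423 CPM (SD, n = 2), control eyes 0.429 ± 0.134 CPM (SD, n = 3). This was a log2 fold change of -1.49 (SE 0.44, interval -2.53 to -0.45, edgeR unadjusted p = 0.0115, adjusted p = 1.0). With 1 library left out it ran from -1.78 to -1.22, and the call was lost without FDM 3 (unadjusted p = 0.0749). Kcnv1 was a rare transcript at these counts, at 0.0696 CPM per kb. The libraries high in Kcnv1, Control 2 and Control 3, were also those high in RPE markers, at 238 and 202 CPM. The part of RPE RNA in the difference was not tested.

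Kcns1 (ENSMUSG00000040164, chromosome 2, 164163619 to 164171113) encodes another silent modifier of Kv channels. FDM 1 and FDM 3 held 40 and 37 counts, Controls 1 to 3 held 44, 67 and 70, so the groups did not overlap in CPM. FDM eyes averaged 0.846 ± 0.108 CPM (SD, n = 2) and control eyes 1.25 ± 0.197 CPM (SD, n = 3), a log2 fold change of -0.57 (SE 0.23, interval -1.11 to -0.02, edgeR unadjusted p = 0.0436). The call did not hold in DESeq2 (unadjusted p = 0.129). It was also lost without FDM 1 (-0.70, unadjusted p = 0.0723), FDM 3 (-0.44, unadjusted p = 0.228), Control 2 (-0.60, unadjusted p = 0.0584) or Control 3 (-0.43, unadjusted p = 0.123). Kcns1 was highest in Control 3 at 1.47 CPM, as were the summed melanocyte and skeletal muscle markers. Control 1 was close to Control 2 (1.18 CPM), unlike for the RPE markers. The part of these tissues was not tested.

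Kcnn1 (ENSMUSG00000002908, chromosome 8, 70842049 to 70863258) encodes a small-conductance calcium-activated channel that follows calcium entry with an outward current. It was better counted, with 560 and 634 counts in FDM eyes and 626, 810 and 769 in Controls 1 to 3. In CPM these were 12.9 and 13.2 in the FDM libraries and 15.7, 14.2 and 16.2 in the control libraries, without overlap. Unlike for Kcnv1, Control 1 was not the lowest control library. FDM eyes had a log2 fold change of -0.23 (SE 0.10, interval -0.47 to 0.00, edgeR unadjusted p = 0.0528), just outside the threshold. The block for the mouse gave -0.29 (unadjusted p = 0.00358, adjusted p = 0.395), and leaving out Control 2 gave -0.28 (unadjusted p = 0.0170). Since Control 2 adds nothing to the block estimate, these fits were not separate checks. Kcnn1 did not pass in DESeq2 (unadjusted p = 0.0799), with the block by label numbers (-0.19, unadjusted p = 0.183) or with any of the other 4 libraries left out (-0.25 to -0.19, unadjusted p = 0.0946 to 0.205). Limma on the deposited normalized counts plus 1 gave -0.31 (unadjusted p = 0.0132).

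The 250 bases before the start sites of Kcns1 and Kcnn1 are shown because these genes had the smallest p-values, with and without the block, among members for which the RefSeq table (GRCm38.p6) held a sequence. They are chr2:164171114-164171363 and chr8:70863259-70863508, both on the minus strand, written from 5′ to 3′ with CG dinucleotides in capitals.
Kcns1: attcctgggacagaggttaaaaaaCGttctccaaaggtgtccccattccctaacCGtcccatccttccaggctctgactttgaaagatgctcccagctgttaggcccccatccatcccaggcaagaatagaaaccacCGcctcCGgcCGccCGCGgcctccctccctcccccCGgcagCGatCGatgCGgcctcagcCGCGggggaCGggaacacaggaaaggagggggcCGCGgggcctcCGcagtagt
Kcnn1: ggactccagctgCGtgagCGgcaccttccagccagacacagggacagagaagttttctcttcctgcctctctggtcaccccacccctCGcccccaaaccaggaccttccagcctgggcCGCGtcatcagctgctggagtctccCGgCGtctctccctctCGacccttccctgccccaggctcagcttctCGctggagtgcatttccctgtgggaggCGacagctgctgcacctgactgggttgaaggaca
The Kcns1 window held 17 CG dinucleotides at a GC content of 63.2% and the Kcnn1 window 10 at 63.6%. CG reads the same on both strands and was the only motif searched. Among windows of this length before 32851 start sites, 92.1% held at least 1 CG, 37.8% held as many as Kcnn1 or more and 23.5% as many as Kcns1 or more. Over 88 start sites of the 64 members in the table the median was 7 CG, beside 6 over all.

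Kcnk10 (chromosome 12, 98429437 to 98578310), a leak channel opened by stretch and lipids, had 51 and 63 counts in FDM eyes and 55, 129 and 90 in Controls 1 to 3. In CPM the FDM libraries lay below each control library, with 1.31 in FDM 3 next to 1.38 in Control 1. Kcnk10 had a log2 fold change of -0.58 (SE 0.25, edgeR unadjusted p = 0.0525). Kcnk10 passed the threshold without Control 1 (-0.74, unadjusted p = 0.00923). It was -0.39 both with the mouse as a block (unadjusted p = 0.101) and without Control 2 (unadjusted p = 0.152), which are not separate checks. Limma on the normalized counts plus 1 gave -0.15 (unadjusted p = 0.478). As for RPE markers, Control 2 and Control 3 were highest (2.26 and 1.90 CPM) and Control 1 lay near the FDM libraries, and the part of RPE RNA was not tested. Its relatives Kcnk2 and Kcnk4, also opened by stretch, had log2 fold changes of 0.12 (unadjusted p = 0.354) and 0.18 (unadjusted p = 0.268), with both FDM libraries above each control library. Kcnk4 shares 13.1% of its exon bases with Catsperz.

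**Figure D3:**
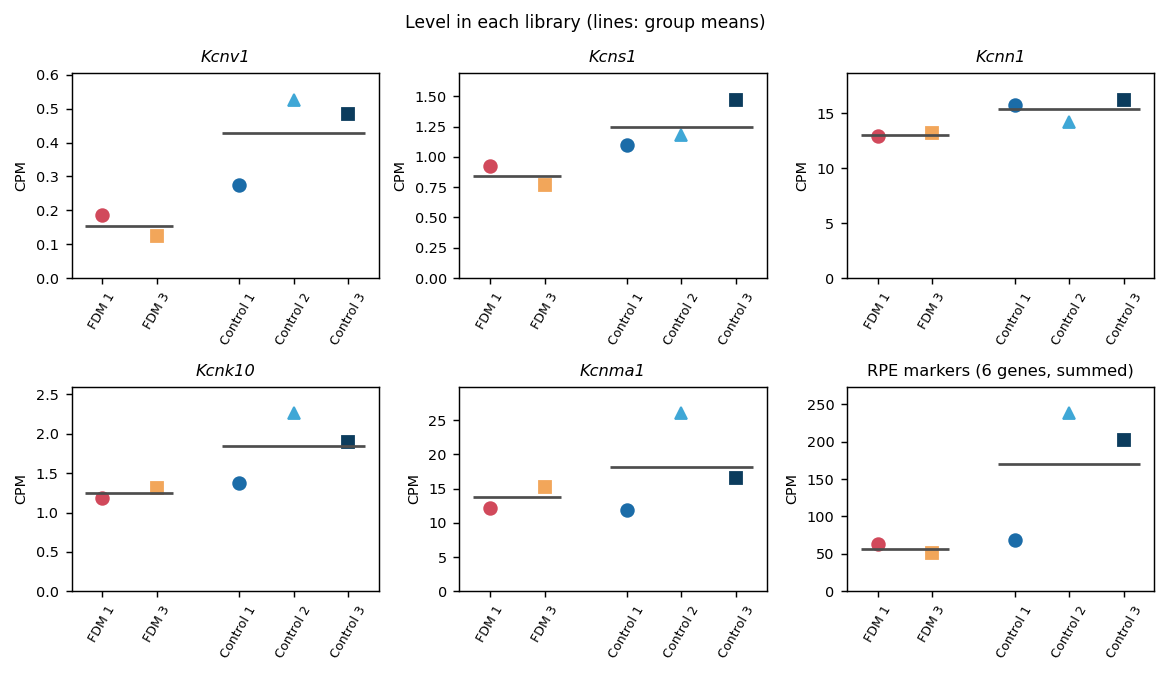
CPM in each library for 5 of the channel genes that passed an unadjusted p under 0.05 in at least 1 model with all libraries. All 5 had a log2 fold change below 0, and Kcnma1 passed only with the block by label numbers. Kcnh7 and Kcnd3, called higher in such a model, and Kcnip1 and Kcnh3, called lower, are among those not shown. The last panel gives the sum of 6 RPE markers, and lines mark the group means. Kcnv1, Kcns1, Kcnn1 and Kcnk10 were lower in both FDM libraries than in each control library, whereas Kcnma1 in Control 1 lay below both FDM libraries. RPE markers reached 238 and 202 CPM in Control 2 and Control 3.

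Kcnma1 (chromosome 14, 23289431 to 24014491), the pore of the large-conductance calcium-activated channel, had 12.1 and 15.3 CPM in FDM 1 and FDM 3 and 11.8, 26.0 and 16.6 CPM in Controls 1 to 3. Control 1 was thus the lowest of the 5 libraries and Control 2 the highest. For Kcnma1 the log2 fold change was -0.41 (SE 0.30, unadjusted p = 0.216), -0.05 with the mouse as a block (unadjusted p = 0.533) and -0.64 without Control 1 (unadjusted p = 0.0230). With the block by label numbers it was -0.38 (edgeR unadjusted p = 0.00934). That block pairs FDM 3 with Control 2, eyes of different mice by the study's numbering, so its p is not that of a true pairing. Without Control 2, which adds nothing to the block for the mouse, the log2 fold change was -0.05 (unadjusted p = 0.817).

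Among the 17 pore-forming Kv subunits, 0 of the 15 tested were called, and the median log2 fold change was -0.05, or 0.04 with the mouse as a block. Kcna5 had 90.1 and 94.6 CPM in FDM eyes and 96.3, 97.2 and 103 CPM in control eyes, a log2 fold change of -0.10 (SE 0.08, unadjusted p = 0.263). Although its groups did not overlap, the interval of -0.29 to 0.09 took in 0. The fast-firing subunit Kcnc1 had a log2 fold change of 0.05 (SE 0.09). Kcnc2, of the same family, had -0.12 (SE 0.13, unadjusted p = 0.392), and -0.24 without Control 1 (unadjusted p = 0.0283). Both with the block (unadjusted p = 0.875) and without Control 2 (unadjusted p = 0.930) it was -0.01. Kcnd3, which carries A-type current, had -0.06 (SE 0.18) and turned to 0.15 both with the block (unadjusted p = 0.0661) and without Control 2 (unadjusted p = 0.164). For Kcnc2 and Kcnd3 alike, the block estimate takes nothing from Control 2, so these fits were not separate checks. Kcna1, a low-threshold Shaker subunit, varied most within the controls, at 4.78, 15.1 and 7.62 CPM, with 6.32 and 7.49 CPM in FDM eyes. Its log2 fold change was -0.41 (SE 0.42, unadjusted p = 0.357), and it turned to 0.17 with the block (unadjusted p = 0.213) and ran from -0.72 to 0.16 with 1 library left out.

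Among the silent modifiers, edgeR called only Kcnv1 and Kcns1. After Kcnv2, Kcng4 and Kcnf1 stood highest of this class per kb. Kcng4 had 30.5 CPM in both FDM libraries and 24.4 to 32.4 CPM in control eyes (log2 fold change 0.11, SE 0.12). Kcnf1 had 0.07 (SE 0.13). Kcng2 had 1.66 and 1.27 CPM in FDM eyes and 1.12 to 1.33 CPM in control eyes (0.24, SE 0.21, unadjusted p = 0.282). Of the 9 tested, 4 had a log2 fold change above 0 and 5 below, with a median of -0.08, or 0.03 with the mouse as a block.

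In the Kv7 and EAG family, 0 of 10 tested members were called without the block. Kcnh2 (0.01, SE 0.10) and Kcnh6 (0.05, SE 0.11) had intervals within -0.22 to 0.32. Kcnh7, a brain-enriched relative of Kcnh2, had 23.5 and 24.0 CPM in FDM eyes and 20.9, 27.2 and 21.6 CPM in control eyes, so the groups overlapped. Its log2 fold change was 0.03 (SE 0.12), and 0.16 with the mouse as a block (unadjusted p = 0.0266). It shares 4.57% of its exon bases with Gca on the opposite strand. Kcnh3, below the count limit, had 3 and 1 counts in FDM eyes and 11, 7 and 7 in control eyes. With genes of at least 1 count in the test, edgeR gave it unadjusted p = 0.0288, and 4 of 89 members (4.49%) were called against 2.02% of all genes. These were Kcnv1, Kcns1, Kcnk10 and Kcnh3, each lower, as were 1.46% of all genes.

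Of 7 tested calcium- and sodium-activated channels, 6 had a log2 fold change below 0, with a median of -0.23, and 0 were called. With the mouse as a block 5 were below 0 and the median was -0.02. Kcnt1, the sodium-activated channel and highest of the class per kb, had a log2 fold change of 0.08 (SE 0.09), and Kcnn2, a close relative of Kcnn1, had -0.02 (SE 0.08, interval -0.22 to 0.18). Kcnn2 was even across libraries, from 17.2 to 17.8 CPM. With the mouse as a block, Kcnn1 alone of the class was called.

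None of the 13 inward rectifiers was called by edgeR. Kcnj14 had 700 and 589 CPM in FDM eyes and 733, 532 and 600 CPM in control eyes (log2 fold change 0.05, SE 0.15). The spread within each group was larger than the difference between them. Kcnj9 (-0.01, SE 0.09) and Kcnj12 (-0.02, SE 0.12) were near 0. Kcnj2, a strong rectifier, had -0.09 (SE 0.11), and so did Kcnj8, the pore of the ATP-sensitive channel of vessel walls (SE 0.17). Kcnj16, which joins the glial channel subunit Kcnj10, had 23 and 38 counts in FDM eyes and 21, 28 and 20 in control eyes. In CPM the FDM libraries were above each control library, at 0.531 and 0.790 against 0.421 to 0.526, and the log2 fold change was 0.47 (SE 0.29, unadjusted p = 0.146). It was 0.15 without FDM 3 and 0.72 without FDM 1. FDM 3, where Kcnj16 was highest, was also the library high in lens markers, at 1227 CPM. The part of lens RNA in the level of Kcnj16 was not tested.

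Of the two-pore-domain channels, Kcnk1 (-0.10, SE 0.09), Kcnk3 (-0.02, SE 0.09) and Kcnk12 (-0.03, SE 0.17) were highest per kb and had no call. Among 13 tested auxiliary subunits 0 were called and the median was 0.00. Kcnab2 had 0.03 (SE 0.12), Kcnab3 0.08 (SE 0.09) and Kcne2 -0.11 (SE 0.09). Kcnip1, a calcium-binding partner of A-type channels, had 39.6 and 41.7 CPM in FDM eyes and 43.0, 42.8 and 45.4 CPM in control eyes, without overlap, at a log2 fold change of -0.11 (SE 0.08, unadjusted p = 0.222). Its relative Kcnip3 had -0.07 (SE 0.09, unadjusted p = 0.427). Kcnmb1, a beta subunit of the large-conductance channel, had 0.27 (SE 0.24, unadjusted p = 0.305).

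Kcnv2 (chromosome 19, 27322588 to 27337179) reached 438 and 454 CPM in FDM 1 and FDM 3 and 399, 606 and 481 CPM in Controls 1 to 3. Both FDM libraries lay within the range of the controls, and Control 2 was highest. Between the groups the log2 fold change was -0.15 (SE 0.17, unadjusted p = 0.388). Summed rod markers were 62377 CPM in Control 1 and 49575 CPM in Control 2, the highest and lowest of the 5 libraries, whereas Kcnv2 was lowest in Control 1 and highest in Control 2. The part of rod content in the level of Kcnv2 was not tested.

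Many channel genes differed between control libraries. Of the 76 members, 30 (39.5%) were highest in Control 2, where 31.4% of all genes were, and 26 (34.2%) were lowest in Control 1, where 24.0% of all genes were. The difference between these libraries was related to the GC content of the transcript. Across 55 members with a mean over 100 counts, Pearson's r of the log2 difference of Control 2 and Control 1 with GC was -0.561, and across all 13550 such genes it was -0.464. These are descriptions across genes of the same libraries. Of 27 members above the median GC of 53.3%, 7 were higher in Control 2 (median log2 difference -0.17), and of 28 at or below it, 23 were (median 0.37). Among the 55, Kcna1 differed most, by 1.65 on the log2 scale, followed by Kcnma1 with 1.14, while Kcnd1, an A-type subunit, had -0.60.

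**Figure D4:**
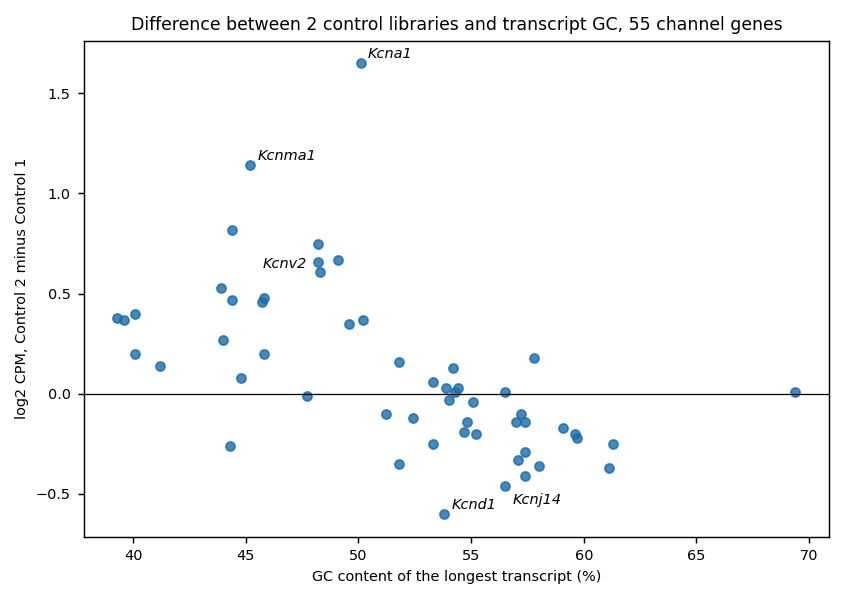
Log2 difference in CPM between Control 2 and Control 1 against the GC content of the longest transcript, one point per channel gene with a mean over 100 counts (55 genes). Of the 28 genes at or below the median GC, 23 lie above 0, Kcnma1 among them, and of the 27 above it 7 do, with Kcnj14 among those below 0 (r = -0.561).

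With each library's trend on GC removed, 4 members (5.26%) were called, against 1.79% of all genes, and all were lower in FDM eyes, as were 1.23% of all genes. Kcnv1 (-1.43, unadjusted p = 0.0103), Kcnk10 (-0.55, unadjusted p = 0.0439), Kcnn1 (-0.25, unadjusted p = 0.0168) and Kcns1 (-0.60, unadjusted p = 0.0363) passed the threshold in this edgeR model, and 0 members passed after adjustment. With both this correction and the mouse as a block 5 (6.58%) were called, against 7.95% of all genes, among them Kcnd3 (0.15, unadjusted p = 0.0447) and Kcnip1 (-0.13, unadjusted p = 0.0381), which no other model with all libraries called.

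Of 26 partners, which were accessory proteins of channels, hyperpolarization-activated channels, sodium-potassium pump subunits and potassium-coupled cotransporters, 24 were tested and 0 were called by edgeR. Their median log2 fold change was -0.01. Amigo1, an accessory protein of Kv channels, had -0.01 (SE 0.08). Atp1b3, a beta subunit of the pump, had 65.5 and 73.2 CPM in FDM eyes and 69.5, 98.3 and 91.2 CPM in control eyes, high in the libraries high in RPE markers. Its log2 fold change was -0.32 (SE 0.15, unadjusted p = 0.0741). With the mouse as a block 4 partners (16.7% of 24, against 7.23% of all genes) passed the threshold, Atp1b3 among them (-0.20, unadjusted p = 0.0223).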

How the data were processed

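Polyadenylated RNA of the retina was sequenced from 2 FDM and 3 control eyes. The authors trimmed the reads with Trimmomatic (version 0.39), quantified transcripts with Salmon (version 1.10.1) and summed them to genes. The deposited values are estimated counts in whole numbers, used without rounding. A second deposited table holds a signal of DESeq2-normalized counts, scaled by a factor for each gene and library, which was used only with limma. Groups came from the sample labels, except that of FDM 3, which came from its column name because no label carries that number for an FDM sample.

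The members and gene lists were chosen with earlier results of these data known. The test took the 17432 genes above 10 counts in 2 or more libraries and used edgeR's quasi-likelihood F test (version 4.0.16) with TMM factors, at an unadjusted p of 0.05 as in the study, with Benjamini-Hochberg values beside it. CPM uses the TMM-scaled totals. The count totals, 40599047 to 56534931, limit precision for rare transcripts, and floors of 3 counts cover counting error only. The small number of libraries and the spread between eyes also limit precision. Exon length and GC content came from GENCODE M21 (GRCm38), in which 33586 gene identifiers were found. Genes named were members past the threshold in a model with all libraries, the 4 with the smallest p in each direction, the 3 highest per kb of each class and a textbook list, and others are named where a count turns on them. Some genes that this rule names are not reported here, although counts over all members include them.

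Alternatives were other scaling factors, DESeq2 (version 1.42.0), limma (version 3.58.1) with a pseudocount of 1 or 0.1, other count limits, a block for the mouse and each library left out. A GC correction (lowess span 0.3) was added after the data were seen. The FDM and control eyes of a mouse came from the study's numbering. A block by the label numbers was also fitted. It pairs FDM 3 with Control 2, which are eyes of different mice by the study's numbering. Deviations from the group means correlated at 0.247 for FDM 1 with Control 1 and at 0.0998 for FDM 3 with Control 3, but at 0.163 for FDM 3 with Control 2. With 2 FDM libraries the values of FDM 1 and FDM 3 mirror each other, so the pairing rests on the study's numbering, and with 2 pairs the block leaves few degrees of freedom. All pairs of libraries differed by more than sampling noise (chi-square per degree of freedom of 11.95 to 60.87). Of the models, only edgeR without a block or GC correction was tested on simulated counts. These held no pairs of eyes and no differences between libraries in GC trend or in markers of other tissues. At an unadjusted p under 0.05 edgeR recovered 76% of 200 genes changed 1.5-fold and called 4.51% of unchanged genes. After adjustment it recovered 11.5% of the changed genes. In the real libraries it called 1.61% of all genes at the unadjusted threshold. The simulated counts thus differ from the data, and the shares recovered may not hold for them.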

Additional observations from a re-analysis of the deposited data

How the results depend on the processing

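No member passed an adjusted p of 0.05 in any model. The number of all genes at an unadjusted p under 0.05 was 281, and became 172 in DESeq2, 498 without the count filter, 1261 with the mouse as a replicate block by the study's numbers, 439 with the block by the label numbers, 1386 with the block and GC correction, and 146 to 944 with 1 library left out. The 2 members called became 1 in DESeq2, 4 without the filter, 5 with the block, 4 with GC correction, 5 with both, and 0 to 7 with 1 library left out. Members called higher were 0, and 1 with the block, 1 with the block and GC correction and 0 to 1 with 1 library left out. Members called lower were 2, and 1 in DESeq2, 4 without the filter, 4 with the block, 4 with GC correction, 4 with both, and 0 to 6 with 1 library left out. With 1 FDM library left, its spread is taken from the controls. The causes of these shifts were not tested.

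Of 407 values of named genes, with Kcna1 and Kcnd1, recomputed with all libraries, 369 kept direction and side of the threshold, 11 passed it newly, 3 (Kcns1 throughout) no longer did and 24 reversed, none of which had been called. Log2 fold changes reversed with the block in Kcna1 (0.17), Kcnab2 (-0.06), Kcnd3 (0.15), Kcnh2 (-0.05), Kcnj12 (0.01), Kcnj14 (-0.05) and Kcnv2 (0.03). With the block and GC correction they reversed in Kcna1 (0.18), Kcnab2 (-0.02), Kcnd3 (0.15), Kcnh2 (-0.01), Kcnj12 (0.05), Kcnj14 (-0.01), Kcnj9 (0.03), Kcnk12 (0.01), Kcnn2 (0.01) and Kcnv2 (0.02). GC correction alone turned Kcnh2 (-0.02), library totals Kcnj9 (0.00), limma Kcnn2 (0.03), and the label-number block Kcnh6 (0.00), Kcnh7 (-0.01) and Kcnk12 (0.08). With 1 library left out, genes that changed sign ran as follows: Kcna1 -0.72 to 0.16, Kcnab2 -0.05 to 0.12, Kcnd3 -0.20 to 0.15, Kcnf1 -0.03 to 0.16, Kcnh2 -0.04 to 0.07, Kcnh6 0.00 to 0.16, Kcnh7 -0.04 to 0.17, Kcnj12 -0.12 to 0.08, Kcnj14 -0.08 to 0.19, Kcnj8 -0.18 to 0.00, Kcnj9 -0.04 to 0.04, Kcnk12 -0.10 to 0.09, Kcnk3 -0.06 to 0.01 and Kcnv2 -0.28 to 0.03. At under 100 counts per library, as for Kcnv1 and Kcns1, a few reads move the estimate.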
